A study of Mus musculus with 4 samples.

Results

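The 50 genes described here encode the constitutive proteasome, its assembly chaperones, activators and inhibitor, and a pair of proteins that control its transcription. They were taken from the 26322 genes listed for MC38 cells as every symbol that begins with Psma, Psmb, Psmc, Psmd, Psme, Psmf or Psmg and a number, without the interferon-inducible subunits Psmb8, Psmb9 and Psmb10, and with Adrm1, Pomp, Nfe2l1 and Ddi2 added. They comprised 16 core particle subunits (8 of the alpha and 8 of the beta ring), 18 regulatory particle subunits (10 of the base and 8 of the lid), 8 assembly chaperones, 5 activators and inhibitors and 2 transcriptional regulators. The remaining gene, Psmc3ip, was caught by its name alone, since it encodes a meiotic recombination factor and not a proteasome subunit.

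The proteasome degrades proteins that carry chains of ubiquitin. Its barrel-shaped core particle holds the proteolytic sites inside rings of beta subunits, which are closed off by rings of alpha subunits, and a regulatory particle docks at the barrel's ends, where its base unfolds substrates with ATPases and its lid removes ubiquitin. Cells short of proteasome activity raise the transcription of most subunit genes together through NFE2L1, a membrane-bound factor that the protease DDI2 cuts free. In cells exposed to interferon, the catalytic subunits are replaced by inducible counterparts, which changes the peptides made for antigen presentation.

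MC38 is a mouse colon carcinoma line. The study asked how CBFβ, the partner subunit of the RUNX transcription factors, bears on the sensitivity of tumour cells to T cells and TNF, and compared the transcriptomes of cells with and without the guide against it. The cells had been electroporated with Cas9 and either a non-targeting guide (sgNT, labelled WT) or 1 guide against Cbfb (sgCbfb, labelled CbfbKO) and were collected at least 1 week later. No treatment with TNF or T cells is given for these libraries. There were 2 sgNT and 2 sgCbfb libraries, and a further replicate of each group was dropped by the authors for poor RNA. The labels do not say whether the edited cells were a clone or a pool, or whether replicates were separate cultures, so the p-values measure only the spread between these libraries. In bulk RNA, a change in every cell and a change in a fraction of the cells cannot be told apart.

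The libraries held 3189035 to 3907936 reads counted on genes, so that 1 read was worth 0.256 to 0.314 CPM, the unit of reads scaled to a common library total. Cbfb was read at 86.9 and 85.5 CPM in sgNT and at 32.0 and 39.2 CPM in sgCbfb, a log2 fold change of -1.27 (SE 0.12, limma adjusted p = 1.76e-07). The 3′ reads do not show whether the remaining transcripts carried an edit. Of 10 colon epithelial markers, 4 had no read in any library and the list summed to between 1.57 and 1.80 CPM, whereas 6 mesenchymal markers, led by Vim and Sparc, summed to 2770 and 2930 CPM in sgNT and to 2939 and 2793 CPM in sgCbfb. Sparc was the one of these markers that passed the test, at 387 and 396 CPM in sgNT and 713 and 674 CPM in sgCbfb. Vim moved the other way, from 2379 and 2530 CPM in sgNT to 2218 and 2113 CPM in sgCbfb (log2 fold change -0.18, SE 0.051, limma adjusted p = 0.0538), and the part of either gene in the results was not tested. The rest of the mesenchymal list added little to its sum. Col1a1 and Pdgfrb were read at no more than 3.76 and 4.09 CPM in any library, and Col1a2 and Acta2 at no more than 0.59 and 0.31 CPM. Leukocyte markers summed to at most 1.54 CPM and endothelial markers to at most 0.60 CPM. Ribosomal RNA from Rn45s made up 11.3% of the reads of sgCbfb replicate 1 and 13.0% to 13.9% of the other libraries, and ratios of the sums are also given without it.

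Of the 50 genes, 48 had enough reads to be tested. Only the catalytic beta subunit gene Psmb6 passed the threshold, being higher in sgCbfb cells, and 0 passed as lower (limma, Benjamini-Hochberg adjusted over 12207 genes, threshold 0.05), with 0 lower at an unadjusted p under 0.05 (2 with each library centred on its median) and 0 passing as lower by voom. Over all genes tested, 2.83% passed, 1.57% as higher and 1.25% as lower, against 2.08% of the 48. An unadjusted p under 0.05 was reached by 5 of the 48, namely Psmb6, Psme1, Pomp, Psmb4 and Psma2, all of them higher in sgCbfb, which is 10.4% against 14.9% of all genes. That count was 9 with voom and 0 without the trend. By voom, 3 of the 48 passed the adjusted threshold as higher (Psmb6, Psme1 and Pomp), beside 258 higher and 196 lower of all 12207 genes. The log2 fold changes ran from -0.19 for Psma5 to 0.33 for Psme2.

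**Figure D1:**
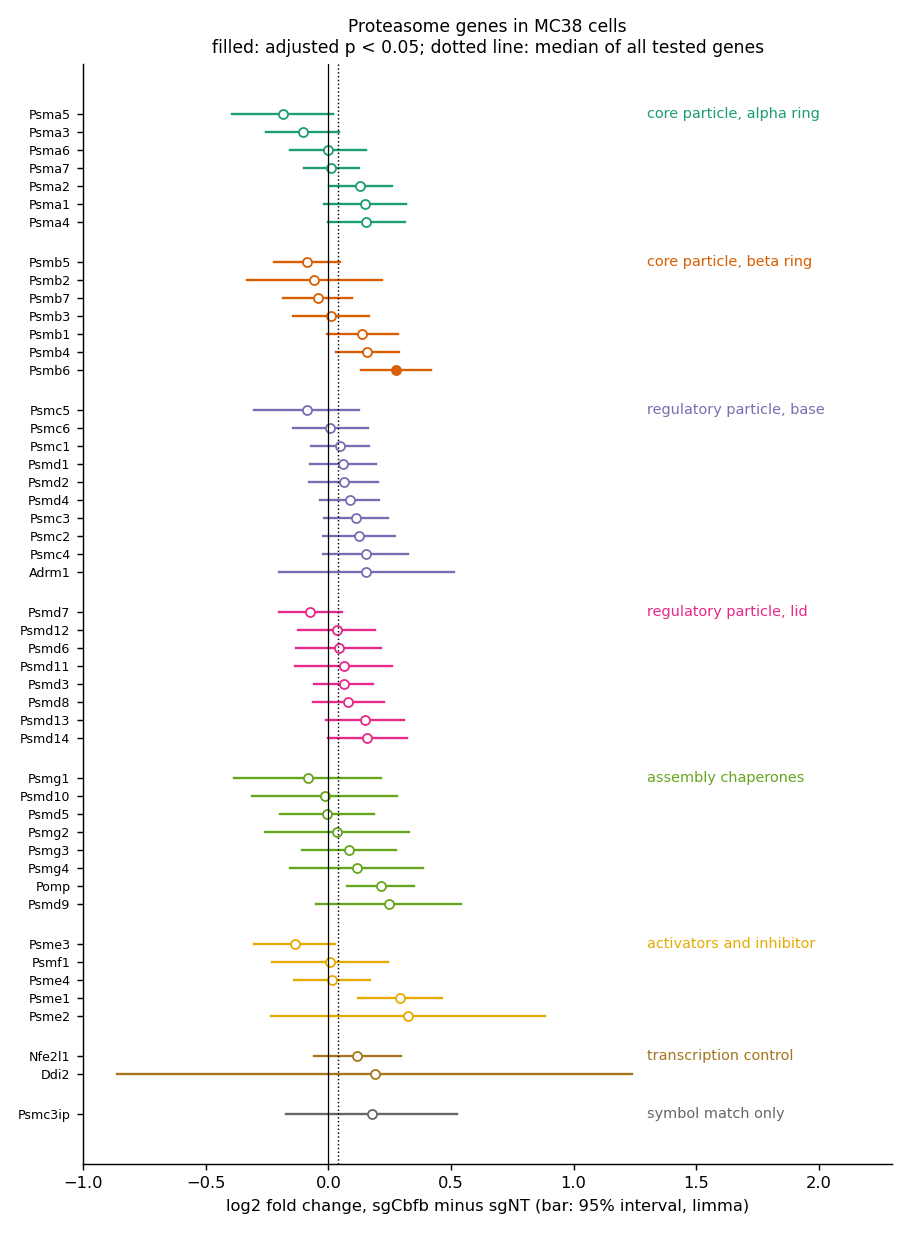
Log2 fold change of each of the 48 tested genes, sgCbfb minus sgNT, with its 95% confidence interval from limma, grouped by class. The points lie between -0.19 and 0.33, and Ddi2 has the widest interval.

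The fold changes were small and leaned upward. They were positive for 36 of the 48 genes (75%) and for 57.0% of all genes tested, and their median was 0.063 against 0.039 over all genes. With each library centred on its median, 31 of the 48 (64.6%) and 53.0% of all genes were positive, and the medians were 0.040 and 0.016. The CPM of both sgCbfb libraries lay above both sgNT libraries for 22 of the 48 genes (45.8%, against 27.4% of all genes) and below them for 6 (12.5%, against 16.8%). For any 1 gene, the smallest two-sided p that an exact permutation of 2 against 2 libraries allows is 0.333.

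The intervals set limits on how large a difference between these libraries could have gone unseen. For 19 of the 48 genes (39.6%), the 95% interval of the log2 fold change lay within 0.25 of 0 in both directions, and for 43 (89.6%) it lay within 0.5. Over all genes tested, 9.74% and 40.9% did so. These limits rest on the mean-variance trend of the fit, since without it 0 of the 48 intervals lay within 0.25 and 38 within 0.5, against 0% and 30.4% of all genes. Most of these genes were deeply read, and among genes with a mean of at least 100 reads the shares within 0.25 were 43.2% for 44 proteasome genes and 23.2% for 5128 genes in all. None of those 44 had a fold change beyond 0.5, against 2.26% of the 5128, and the median size of the log2 fold change was 0.085 against 0.10. The cut-off sets only a lower limit on reads, so depth above it was not matched.

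**Figure D2:**
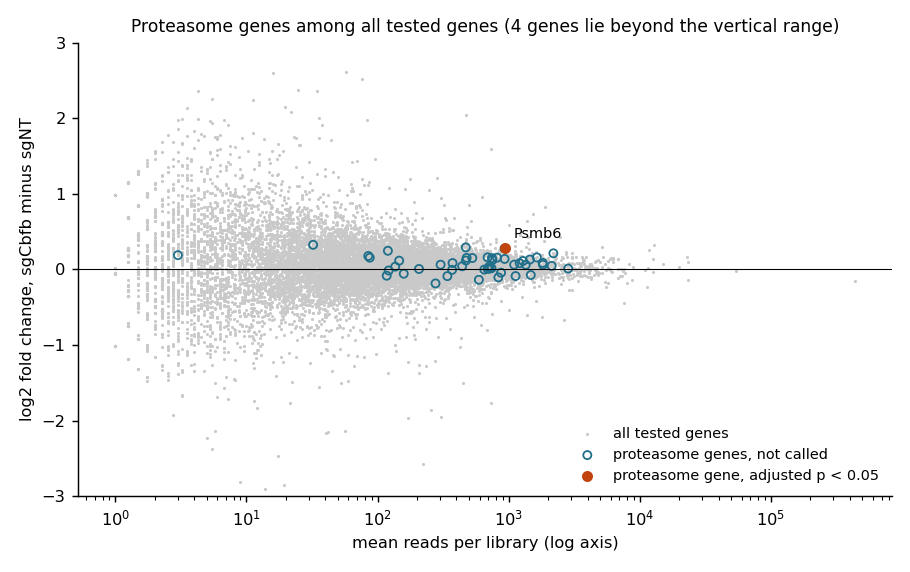
Log2 fold change (sgCbfb minus sgNT, vertical) against mean reads per library (horizontal, log axis) for the genes tested, with 48 proteasome genes as circles and Psmb6, the one past the adjusted threshold, filled. The circles lie between -0.19 and 0.33, and most have a mean of at least 100 reads.

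Summed over all 50 genes, proteasome transcripts took 1.05% and 1.06% of the reads in the sgNT libraries and 1.12% and 1.09% in the sgCbfb libraries. In CPM the sums were 10496 and 10612 in sgNT and 11241 and 10900 in sgCbfb, a ratio of 1.05, which fell to 1.03 with ribosomal RNA left out of the library totals. The groups did not overlap, but the sgCbfb libraries differed from each other by more than the sgNT libraries did (SD 242 against 82.1 CPM).

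**Figure D3:**
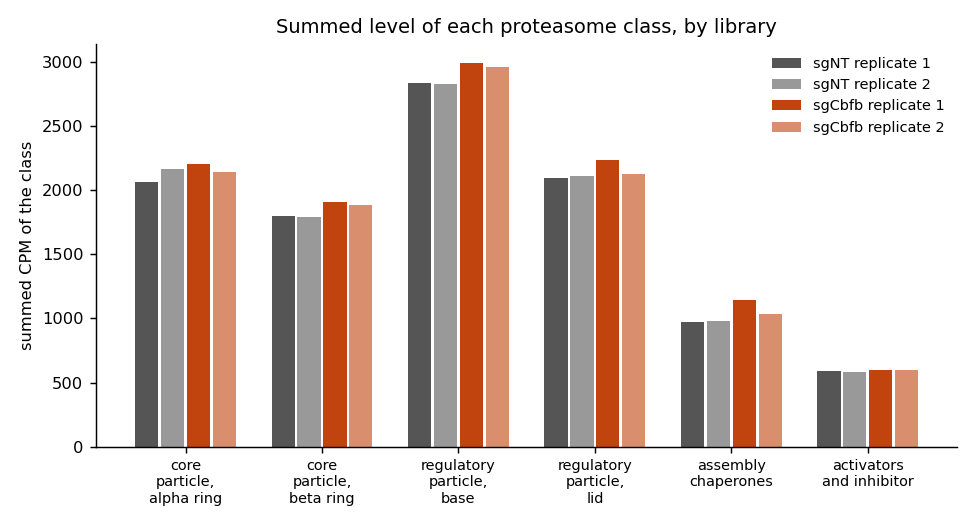
Summed CPM of each proteasome class in each library, with 1 bar per library and the axis starting at 0. The bars of a class are of nearly equal height, and the assembly chaperones of sgCbfb replicate 1 reach 1143 CPM against 973 to 1030 in the other libraries.

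The core particle is built from an alpha ring that gates the entrance and a beta ring that cuts the substrate. Its 14 tested genes split into 8 with a positive and 6 with a negative fold change, with a median log2 fold change of 0.011, and with each library centred on its median the split was 6 to 8 and the median -0.012. Without sgCbfb replicate 1 the median was 0.065, beside 0.069 for the regulatory particle, and with any other library left out it was 0.024 to 0.031. Their summed level was 3861 and 3951 CPM in sgNT and 4109 and 4021 CPM in sgCbfb, a ratio of 1.04, which was 1.02 with ribosomal RNA left out. Psma8, which belongs to the testis form of the core, and Psmb11, which belongs to the thymic form, had no read in any library, which allows up to 3 reads per library. The groups separated upward for 6 of the 14 core genes (42.9%, against 27.4% of all genes tested) and downward for 4 (28.6%, against 16.8%).

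Psmb6 encodes the subunit with caspase-like activity, which cuts after acidic residues. The gene lies at chr11:70525367-70527858 on the plus strand (GRCm38, GENCODE M21, as for all gene positions given). It was read at 251 and 235 CPM in sgNT (852 and 783 reads) and at 298 and 291 CPM in sgCbfb (1163 and 927 reads). The lower of the sgCbfb libraries stood above both sgNT libraries. This is a log2 fold change of 0.28 (SE 0.069, limma adjusted p = 0.0245), or 21.1% higher with a 95% interval of 9.74% to 33.7%. The call did not hold when any single library was left out, where the adjusted p ran from 0.0646 to 0.551 and the log2 fold change from 0.23 to 0.32. It was kept in 6 of 13 alternatives, over which the adjusted p ran from 0.00606 to 0.551. None of its terminal sequence was shared with another gene.

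The other catalytic subunits did not pass the test. Psmb5 (chr14:54614119-54618022, minus strand), which carries the chymotrypsin-like site, was read at 333 and 342 CPM in sgNT and at 309 and 326 CPM in sgCbfb, so that both sgCbfb libraries were the lower ones. Its log2 fold change of -0.09 had a 95% interval of -0.22 to 0.05 (limma adjusted p = 0.587). Psmb7 (chr2:38588036-38644087, minus strand), which carries the trypsin-like site, was read at 262 and 252 CPM in sgNT and at 250 and 249 CPM in sgCbfb. Its log2 fold change was -0.04, with a 95% interval of -0.19 to 0.10 (limma adjusted p = 0.838). The difference between Psmb6 and either gene was not tested. The last 300 bases of Psmb7 overlap Nek6 on the opposite strand over 80.1% of their 75-base words (stretches as long as a read), and those of Psmb5 share 35.1% with Gm3375, so their reads may be split or mixed.

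Because the sequence upstream of these genes bears on their transcription, the 250 bases before the start of Psmb6 and Psmb5 are printed from the RefSeq table for GRCm38.p6, 5′ to 3′ on the gene's strand. These are the catalytic genes with a promoter entry. The change of Psmb5 did not pass the test, and no link between these letters and a change was tested. The stretch of Psmb6 lies at chr11:70525107-70525356 on the plus strand and that of Psmb5 at chr14:54617996-54618245 on the minus strand. Capitals mark TGACNNNGC, the core of the antioxidant response element that NFE2L1 binds, and TGTGGT, the core of the RUNX motif.
Psmb6: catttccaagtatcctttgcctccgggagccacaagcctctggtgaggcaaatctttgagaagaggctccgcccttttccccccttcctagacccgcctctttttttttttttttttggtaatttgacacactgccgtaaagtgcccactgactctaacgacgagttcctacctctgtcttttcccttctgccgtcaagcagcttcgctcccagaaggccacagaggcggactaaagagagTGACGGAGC
Psmb5: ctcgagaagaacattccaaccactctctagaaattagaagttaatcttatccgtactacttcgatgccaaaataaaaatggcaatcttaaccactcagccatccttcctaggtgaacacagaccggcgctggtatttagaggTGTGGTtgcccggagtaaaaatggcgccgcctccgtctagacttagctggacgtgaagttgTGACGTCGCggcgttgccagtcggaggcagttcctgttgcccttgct

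Both stretches held the antioxidant response element core on the gene's strand, 9 bases before the start in Psmb6 and 47 before it in Psmb5. Psmb5 also held the RUNX core 108 bases before its start, and Psmb6 held none in this window. Promoters, taken as 250 bases before to 50 after each start, were found for 42 of the 50 genes, and both strands were searched. The antioxidant response element core was in 7 of the 42 genes (16.7%) and in 14.0% of all 27025 genes in the table. The matched bases are given below for all 7, read in the orientation of the motif, to show how far the variable bases differ.
Adrm1: TGACACAGC
Psmb5: TGACGTCGC
Psmb6: TGACGGAGC
Psmc6: TGACTTAGC
Psmd12: TGACACAGC
Psmd9: TGACCCCGC
Psme4: TGACGCTGC

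Of these 7 genes, Psmb6 was the called one and the median log2 fold change was 0.03. TGTGGT was in 7 of the 42 genes (16.7%, against 18.9% of all genes), namely Nfe2l1, Psma6, Psmb5, Psmc2, Psmc3ip, Psmd2 and Psme3. None of them was called, against 2.83% of all genes tested, and their log2 fold changes ran from -0.14 to 0.18. CCAAT, the box bound by NF-Y, was in 16 of the 42 (38.1%, against 41.1% of all genes), of which 15 were tested and none was called. With 2.83% of all genes called, the absence of a call in sets this small says little. The matches in the printed stretches did not overlap another searched motif. A match describes the letters and is not a measured binding site.

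Among the noncatalytic beta subunits, Psmb4 was read at 443 and 451 CPM in sgNT and at 519 and 479 CPM in sgCbfb, with a log2 fold change of 0.16 (SE 0.062, limma adjusted p = 0.199). Psmb1 was read at 251 and 261 CPM in sgNT and at 292 and 272 CPM in sgCbfb (log2 fold change 0.14). Both genes had higher values in each sgCbfb library than in either sgNT library and did not pass the test. Psmb2 and Psmb3 overlapped between the groups.

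In the alpha ring no gene passed the test. Psma2 was read at 391 and 409 CPM in sgNT and at 443 and 434 CPM in sgCbfb (log2 fold change 0.13, limma adjusted p = 0.320). Psma4, at 214 and 230 CPM against 262 and 234, and Psma1, at 140 and 149 CPM against 166 and 155, had log2 fold changes of 0.16 and 0.15 and also separated upward. Psma5 separated the other way, from 88.0 and 83.1 CPM in sgNT to 73.4 and 76.8 CPM in sgCbfb, which gave the lowest log2 fold change of all 48 genes, -0.19 (SE 0.10, limma adjusted p = 0.405). Psma3 was at 240 and 262 CPM in sgNT and at 234 and 231 CPM in sgCbfb (log2 fold change -0.11). The terminal sequences of Psma5 and Psma3 are shared in part with other annotated genes that are not in the deposited table, 38.1% and 31.3% of their 75-base words. Psma7 held at 801 and 840 CPM against 829 and 824, with an interval of the log2 fold change from -0.10 to 0.12.

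The regulatory particle recognises, unfolds and deubiquitinates the substrate. All 18 of its genes in the set were tested, and 16 had a positive and 2 a negative fold change (15 and 3 with each library centred on its median). Of these 18, 0 reached an unadjusted p under 0.05 by limma, against 2 (Psmd13 and Psmd14) by voom. The median log2 fold change was 0.063, and 11 of the 18 intervals lay within 0.25 of 0 (0 of 18 without the trend). The summed level was 4926 and 4938 CPM in sgNT and 5222 and 5080 CPM in sgCbfb, a ratio of 1.04, which was 1.03 with ribosomal RNA left out. The small lid subunit gene Sem1, which the symbol rule left out, was read at 241 and 269 CPM in sgNT and at 226 and 227 CPM in sgCbfb. Its groups separated downward, with a log2 fold change of -0.17 (limma unadjusted p = 0.0311, adjusted p = 0.268).

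In the base, the ring of ATPases threads the substrate into the core, and 9 of the 10 base genes had positive fold changes (8 with each library centred on its median). The ATPase gene Psmc4 was read at 125 and 137 CPM in sgNT and at 147 and 144 CPM in sgCbfb (log2 fold change 0.15). Its fold change was 0.082 without sgNT replicate 1 and 0.22 without sgNT replicate 2. Psmc2 was at 205 and 211 CPM against 227 and 226 (log2 fold change 0.12), and Psmc3 at 361 and 355 CPM against 380 and 394 (log2 fold change 0.11). These ATPase genes were named because their groups did not overlap, as was so upward for 5 of the 10 base genes and 27.4% of all genes tested, and none passed the test. The exception in sign was Psmc5, whose groups overlapped.

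The ubiquitin receptor gene Psmd4 was read at 516 and 503 CPM in sgNT and at 547 and 535 CPM in sgCbfb (log2 fold change 0.09, limma adjusted p = 0.540). Adrm1, which encodes another receptor of the base, was at 26.8 and 21 CPM in sgNT and at 26.6 and 26.3 CPM in sgCbfb. Its groups overlapped, and 81.9% of its terminal words are shared with Gm9774.

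In the lid, Psmd14 encodes the metalloprotease that removes ubiquitin chains as the substrate enters. It was read at 177 and 201 CPM in sgNT and at 214 and 207 CPM in sgCbfb (log2 fold change 0.16, limma adjusted p = 0.341), and the fold change was 0.069 without sgNT replicate 1 and 0.25 without sgNT replicate 2. The structural lid genes Psmd13, at 211 and 197 CPM against 239 and 214, and Psmd3, at 511 and 523 CPM against 537 and 543, had log2 fold changes of 0.15 and 0.06. Psmd7 encodes the partner of PSMD14 and was the one of the 8 lid genes in the set with a negative value. It was read at 438 and 437 CPM in sgNT and at 430 and 401 CPM in sgCbfb (log2 fold change -0.07). These lid genes were named partly because their groups did not overlap. Of all 8 lid genes, 4 separated upward and 1 downward, against 27.4% and 16.8% of all genes tested.

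**Figure D4:**
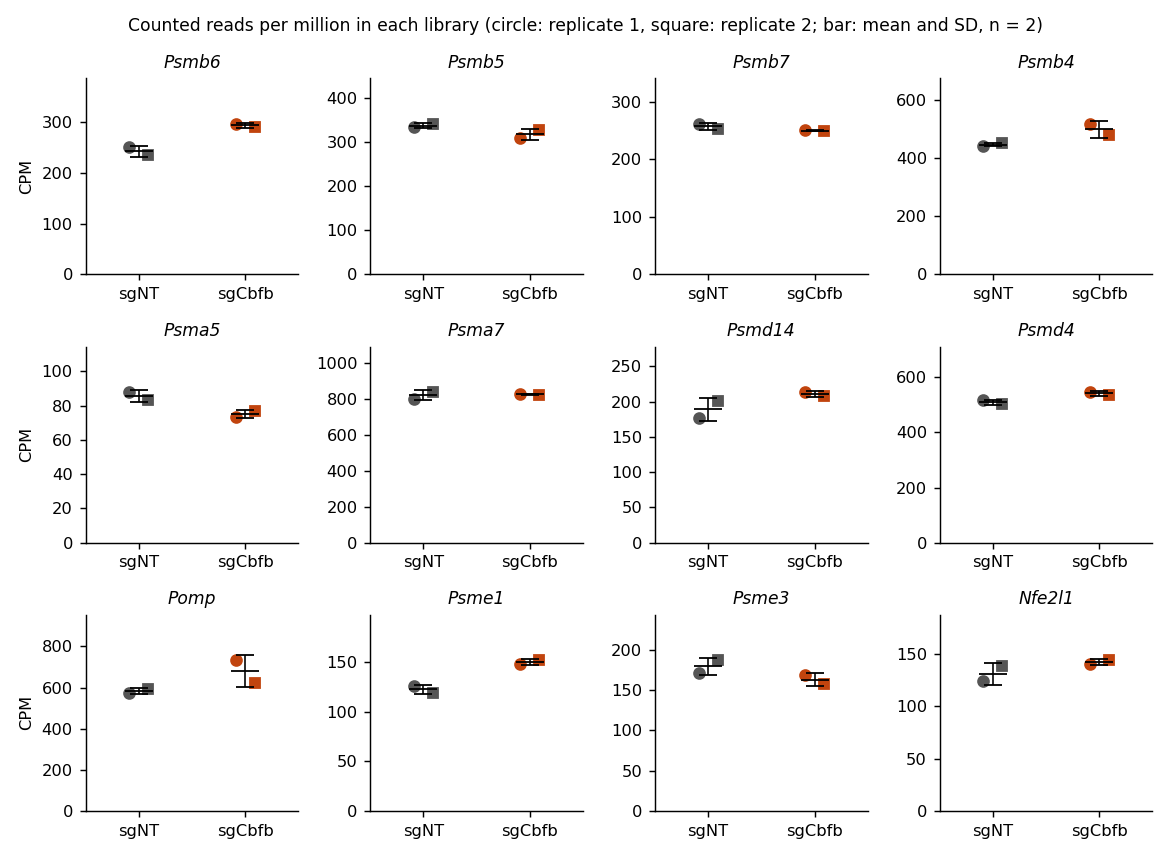
CPM of 12 named proteasome genes in each of the 4 libraries, 1 panel per gene, each axis starting at 0, with replicate 1 as a circle, replicate 2 as a square and bars for the mean and SD of 2 libraries. Psmb6, Psmb4, Psmd14, Psmd4, Pomp, Psme1 and Nfe2l1 stand higher in both sgCbfb libraries than in either sgNT library. Psmb5, Psmb7, Psma5 and Psme3 stand lower, and Psma7 overlaps. Only Psmb6 passed the test, and the sgCbfb libraries of Pomp lie apart at 734 and 624 CPM.

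Assembly chaperones bring the rings together and leave the finished particle, except POMP, which is the maturing core's first substrate. Pomp (chr5:147860461-147876456, plus strand) was read at 574 and 594 CPM in sgNT and at 734 and 624 CPM in sgCbfb, a log2 fold change of 0.21 (SE 0.066, limma adjusted p = 0.0899). It did not pass the threshold here and did pass in 3 of 13 alternatives, over which the adjusted p ran from 0.0175 to 0.631. The higher value rests largely on sgCbfb replicate 1, without which the log2 fold change was 0.10. The 8 chaperone genes summed to 973 and 981 CPM in sgNT and 1143 and 1030 CPM in sgCbfb, a ratio of 1.11, which was 1.09 with ribosomal RNA left out and 1.04 without Pomp. Psmd9 was at 30.3 and 33.0 CPM in sgNT and at 37.6 in both sgCbfb libraries (log2 fold change 0.25, SE 0.14, limma adjusted p = 0.450). Psmg4 was at 39.8 and 41.1 CPM against 46.1 and 41.7 (log2 fold change 0.12), and its fold change was 0.045 without sgCbfb replicate 1.

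Activators open the alpha ring without the regulatory particle. Psme1 and Psme2 encode the ring activator that interferon induces, and Psme1 (chr14:55578123-55581529, plus strand) was read at 126 and 119 CPM in sgNT and at 148 and 152 CPM in sgCbfb. Its log2 fold change of 0.29 (SE 0.083) missed the threshold (limma adjusted p = 0.0574), and it passed in 3 of 13 alternatives, with adjusted p-values from 0.0256 to 0.551. Psme2 had 25 and 30 reads in sgNT and 43 and 31 in sgCbfb, too few to resolve its log2 fold change of 0.33 (SE 0.27, limma adjusted p = 0.641), and it shares 46.1% of its terminal words with Psme2b. Psme3, the nuclear activator gene, went from 172 and 187 CPM in sgNT to 169 and 157 CPM in sgCbfb (log2 fold change -0.14, limma adjusted p = 0.451). Psme4, another nuclear activator gene, was at 223 and 203 CPM against 209 and 223, and Psmf1, the inhibitor gene, at 58.6 and 60.6 CPM against 63.7 and 56.1. Both overlapped between the groups, and the signs of their fold changes depended on the scaling.

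The genes that control proteasome transcription gave no call. Nfe2l1 was read at 124 and 139 CPM in sgNT and at 140 and 144 CPM in sgCbfb (log2 fold change 0.12, limma adjusted p = 0.576), and the fold change was 0.036 without sgNT replicate 1 and 0.20 without sgNT replicate 2. Ddi2 had 2 and 3 reads in sgNT and 5 and 2 in sgCbfb, and no difference was detectable at this depth. The gene caught by name alone, Psmc3ip, was at 23.9 and 22.2 CPM against 25.8 and 26.3, and all of its terminal words overlap Mlx on the opposite strand.

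The inducible counterparts of the catalytic subunits were compared as shares of each pair's reads. Psmb8 made up 14.6% and 17.0% of the reads of Psmb5 and Psmb8 in sgNT, and 20.8% and 19.0% in sgCbfb. Psmb10 made up 24.3% and 25.1% of the reads of Psmb7 and Psmb10 in sgNT, and 28.9% and 29.3% in sgCbfb. The shares in both sgCbfb libraries were the higher ones for these pairs. Among single genes tested, 27.4% separated upward, and no such share was taken over other pairs of genes. The reads of Psmb5 and Psmb7 may be split or mixed, as given above. The Wilson 95% intervals, which cover counting error only, overlapped for Psmb10 between each sgNT and each sgCbfb library, with upper limits of 26.9% and 27.7% in sgNT and lower limits of 26.6% and 26.7% in sgCbfb. For Psmb8, the interval of sgNT replicate 2 (15.1% to 19.1%) overlapped those of both sgCbfb libraries, which began at 18.8% and 16.9%. That of sgNT replicate 1 (12.8% to 16.6%) overlapped neither. Overlap of separate intervals does not show that shares are alike, and the difference in shares was not tested. Psmb9 stayed between 0.382% and 1.11% of the reads of Psmb6 and Psmb9, with 3 to 13 reads. By limma, Psmb8 had a log2 fold change of 0.31 (adjusted p = 0.163), Psmb10 of 0.28 (adjusted p = 0.124) and Psmb9 of 0.52 (SE 0.48, adjusted p = 0.683), so none passed. The value of Psmb8 was 0.17 without sgNT replicate 1 and 0.46 without sgNT replicate 2.

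**Figure D5:**
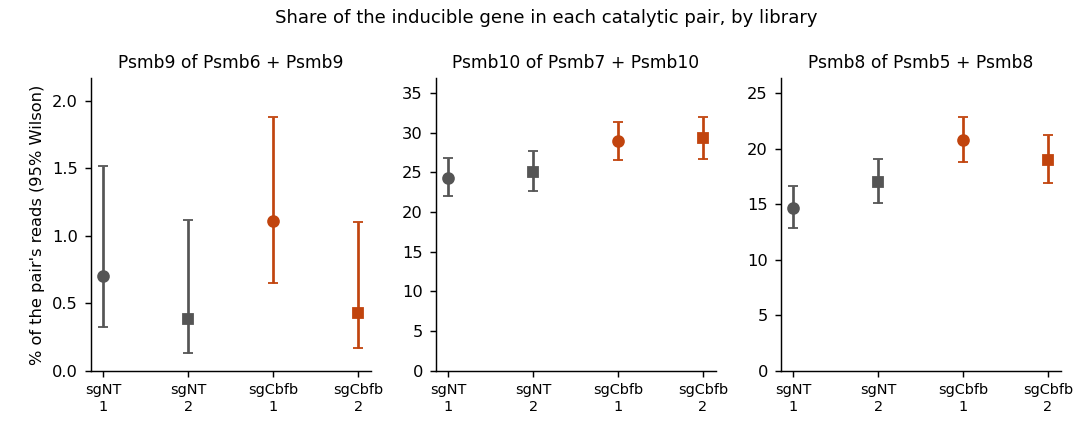
Reads of the inducible gene as a percentage of the reads of its catalytic pair (vertical, from 0), by library, with Wilson 95% intervals. Psmb10 stands at 28.9% and 29.3% in sgCbfb above 24.3% and 25.1% in sgNT. The intervals of both Psmb10 and Psmb9 overlap between the groups throughout, which does not show that the shares are alike.

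Other genes of the ubiquitin-proteasome pathway were read from lists of shuttle factors, proteasome-associated proteins, the p97 unfoldase with its cofactors, ubiquitin genes, the small lid subunit Sem1 and the immunoproteasome. Of 33 tested, 2 passed as higher and 1 as lower, against 1.57% and 1.25% of all genes tested. Nub1 (chr5:24685532-24710378, plus strand), which encodes an adaptor that brings NEDD8 conjugates to the proteasome, rose from 40.6 and 36.6 CPM in sgNT to 56.0 and 57.7 CPM in sgCbfb (log2 fold change 0.55, SE 0.13, limma adjusted p = 0.0114). Uba1 (chrX:20658326-20683179, plus strand), which encodes the main ubiquitin-activating enzyme, rose from 303 and 269 CPM to 361 and 348 CPM (log2 fold change 0.31, SE 0.070, limma adjusted p = 0.0103). AI314180 (chr4:58798911-58912749, minus strand), now named Ecpas and encoding the proteasome adaptor ECM29, fell from 97.8 and 118 CPM to 83.9 and 80.0 CPM (log2 fold change -0.39, SE 0.10, limma adjusted p = 0.0363). These calls did not hold without sgNT replicate 2 or without either sgCbfb library, where the limma adjusted p ran from 0.135 to 0.551. The log2 fold change of AI314180 was -0.25 without sgNT replicate 2 and -0.52 without sgNT replicate 1. The median log2 fold change over the 33 genes was -0.01.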

How the data were processed

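RNA of MC38 cells, in 2 sgNT and 2 sgCbfb libraries, was profiled by 3′ mRNA sequencing with single-end reads of 75 bases. The submitters' processing notes name cutadapt 1.9, HISAT2 2.1.0 and featureCounts 2.0.1 with mm10, and the study's methods give another featureCounts release. The annotation release, the use of strand and the treatment of reads matching several genes are not given in the sources used here, and they could change genes with near-identical copies or overlapping neighbours. The authors deposited log2 CPM values, scaled to library totals, whose floor of -0.79 fits a prior count of 2.

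Whole reads were recovered from the values, within 0.1 of a whole number for all but 2 of 52349 values, and describe depth. Over 9520 genes, replicates differed by more than counting noise (chi-square per degree of freedom 1.58 for sgNT and 2.15 for sgCbfb), so no library was treated as another deposited again. This does not show that they were separate cultures. Differences were tested with limma 3.58.1 (R 4.3.3, lmFit and eBayes with a trend, two-sided) on the log2 values of genes with at least 0 in at least 2 libraries, and p-values were adjusted by Benjamini-Hochberg over all tested genes, the threshold being 0.05. The methods name voom with limma, which takes counts. The script was tested on simulated data.

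The genes and lists were chosen with earlier results of these data known. Genes named are those past the threshold, the 3 with the smallest p per class and direction whose groups did not overlap, the catalytic subunits, and fixed receptors, chaperones, activators and regulators. Others were added afterwards for their zero counts, sign or steadiness, and the cut-off of a mean of 100 reads was also set after the data were seen. Terminal sequence sharing compared 75-base words of the last 300 bases of GENCODE M21 transcripts on GRCm38. Promoters came from RefSeq (GRCm38.p6). Python 3.11.15 and matplotlib 3.10.9 were used.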

Additional observations from a re-analysis of the deposited data

How the results depend on the processing

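Over all genes, the 192 higher and 153 lower calls became 300 higher with a minimum of 5 CPM, 39 and 44 with quantile normalization, 0 and 0 by limma without the trend (where 1461 had an unadjusted p under 0.05), 103 and 97 at a threshold of 0.01 and 320 higher with the replicate block. Leaving out 1 library gave 0 to 115 higher and 0 to 86 lower genes, with 0 of each without either sgCbfb library (1104 and 1169 at an unadjusted p under 0.05). The 1 higher proteasome gene became 3 (Psmb6, Psme1 and Pomp) with the 5 CPM minimum, with the replicate block and with voom on recovered reads, and 0 without a low-value filter (Psmb6 adjusted p = 0.0536 by limma), without the trend (0.455), with quantile normalization (0.181), at a threshold of 0.01 and with any library left out (0 to 0). No proteasome gene was called lower in any setting. Pathway genes called higher went from 2 to 3 with voom, and to 0 without the trend and with quantile normalization. Those called lower went from 1 to 2 with the 5 CPM minimum, the block and voom, and to 0 without the filter, without the trend and with quantile normalization. Cbfb kept its value of -1.27 without the trend at a limma adjusted p of 0.115, and ranged from -1.41 to -1.12 with a library left out, at a limma adjusted p of 0.267 without sgCbfb replicate 1 and 0.193 without sgCbfb replicate 2. The median log2 fold change of the proteasome genes was 0.040 with median centring, 0.039 with quantile normalization and 0.039 with ribosomal RNA left out of the totals, an alternative chosen after seeing the data, and 0.061 to 0.091 with a library left out. The medians of the beta ring and of the activators ranged from -0.036 to 0.088 and from 0.029 to 0.096 with a library left out. They were 0.010 and 0.016 as reported, and turned to -0.013 and -0.0072 with median centring and to -0.013 and -0.0074 with ribosomal RNA left out. With a library left out, signs turned for Adrm1 (-0.017 to 0.327), Ddi2 (-0.12 to 0.50), Psmb9 (-0.0226 to 1.07), Psme4 (-0.0525 to 0.0838) and Psmf1 (-0.0850 to 0.0961). Psme4 also turned with median centring (-0.0072) and with ribosomal RNA left out (-0.0074), and Psmf1 with median centring (-0.017), quantile normalization (-0.016) and ribosomal RNA left out (-0.018). The other genes named by the rule kept their sign in all 13 alternatives. Of those named outside it, Psma6, Psma7, Psmb2, Psmb3, Psmc5, Psmc6 and Psmd12 changed sign in at least 1. With 1 library left out, the fold changes of 19 of the 30 proteasome genes named by the rule moved by over 1.5 times or changed sign, among them Psmd13 (0.069 to 0.230) and Psma4 (0.073 to 0.237), while those of the other 11, Psmb6 and Psme1 among them, did not. The number of proteasome genes whose interval lay within 0.25 of 0 was 19 as reported, 0 without the trend and 9 to 16 with a library left out. The cause was not tested.

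Same-numbered libraries deviated together with a correlation of -0.0042 over 12207 genes, so the numbers were not taken to pair the samples. The planned quasi-likelihood count test was not run, and voom on recovered reads was run in its place. Few reads limit Ddi2 and Psme2 among the proteasome genes and Psmb9 among the pathway genes.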
